A study of Mus musculus with 2 samples.

Results

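The windows described here cover the 3 T cell receptor loci of the mouse in chromatin immunoprecipitation sequencing (ChIP-seq) of T helper 17 (Th17) cells, a CD4 T cell type known for IL-17. The loci were cut into non-overlapping windows of 5 kb by position alone, on genome build mm9, without regard to read number. The Tra/Trd locus, chr14:53000000-54899999, gave 380 windows, Trb, chr6:40800000-41559999, gave 152, and Trg, chr13:19200000-19499999, gave 60. They made 592 windows, against 470673 autosomal ones in which at least 1 library had a read. The 500 kb on either side of each locus served as its control, 200 windows a locus. Tra/Trd was divided at approximate limits into a V part of 1680 kb, a Trd D-J-C part of 90 kb, a Tra J part of 70 kb and a Tra constant end of 60 kb.

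There were 2 libraries, 1 per antibody, both from wild-type C57BL/6J cells. Naive CD4+CD44-CD62L+ T cells were sorted from spleen and lymph nodes and kept for 3 days in Th17 conditions: antibodies to CD3 and CD28, IL-6, TGF-beta and anti-IL-4. The labels also list anti-IL-2 in that culture, given in a unit usual for IL-2 itself. The STAT3 library came from cells then given IL-6 at 40 ng/ml for 30 minutes, and the STAT5 library from cells given IL-2 at 200 IU/ml for 30 minutes, using STAT5a and STAT5b antibodies together. Antibody and cytokine therefore differed together and cannot be told apart. No input or IgG library was analysed here, no library had a replicate, and the number of mice was not stated in the labels. No p-value was computed for any comparison, and the only ones used were those that called regions. Every interval is a 95% interval that covers counting error only. The STAT3 library held 20784388 nuclear reads and the STAT5 library 17963766, and RPM below scales reads to these totals.

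T cell receptor genes are assembled in the thymus by V(D)J recombination, which joins a V segment to D and J segments and usually removes the DNA between them as a circle. Trd lies inside Tra, between most Tra V segments and the Tra J segments, so a Tra rearrangement deletes it. Trb rearranges before Tra, and Trg encodes the gamma chain of the other T cell lineage, where STAT5 downstream of the IL-7 receptor is known to open the J segments. STAT3 and STAT5 are transcription factors activated downstream of IL-6 and IL-2. Deletion itself was not measured in these libraries, and its part in any depth below was not tested.

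The RefSeq table, whose coordinates are on GRCm38 and were used for names and order only, lists 130 Trav genes, 40 of them with a d and 34 with an n in the name, the marks of the copied blocks of this V array. It lists 6 Trdv, 2 Trdd, 2 Trdj and 60 Traj genes. Trdd1, Trdd2, Trdj1 and Trdj2 stand between Trdv4 and Trdc, Trdv5 follows Trdc, and Dad1 directly follows Trac. For Trb it lists 35 Trbv genes, 2 Trbd, 14 Trbj and 2 Trbc. Between Trbv30 and Trbd1 stand 11 other genes, 6 of them with trypsin names (such as Try4, Try5, Try10 and Prss2), and Trbv31 follows Trbc2. Trg has 7 Trgv, 4 Trgj and 4 Trgc genes. No region below could be assigned to a gene, because no mm9 annotation was used here.

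Read depth split the Tra/Trd locus in 2. The Tra V part held 2.59 STAT3 and 2.63 STAT5 reads per kb and the Trd D-J-C part 1.44 and 1.82, against 18.2 and 15.2 in the control. The Tra J part held 48.4 and 64.0 reads per kb and the Tra constant end 77.3 and 71.3. Both libraries thus showed few reads over V and Trd and many from the J segments onward. With the libraries pooled, depth relative to the control was 0.157 in the V part (0.153 to 0.160) and 0.0979 in Trd (0.0870 to 0.110). It was 3.37 in the J part and 4.45 at the constant end. These intervals assume that reads scatter evenly, and they leave out the variation along the genome.

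**Figure D1:**
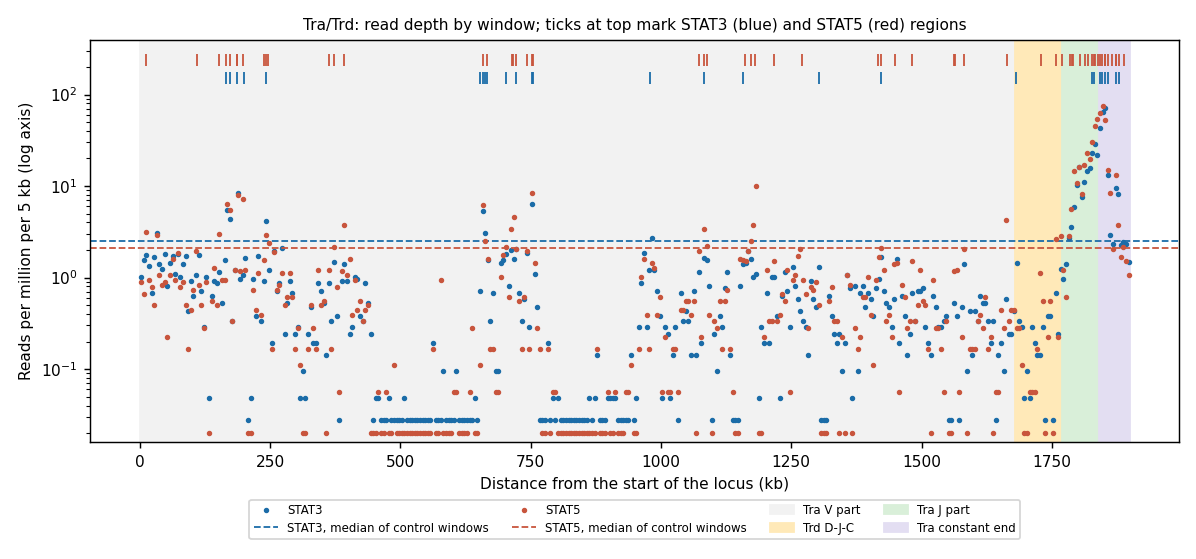
RPM in each 5 kb window of Tra/Trd against distance from the locus start in kb, on a log axis, for STAT3 (blue) and STAT5 (red). Dashed lines are the medians of the 200 control windows, 2.50 for STAT3 and 2.12 for STAT5, points on the bottom rows are windows with no read, ticks at the top are called regions, and shading marks the 4 segments. Depth lies mostly under the dashed lines in the V and Trd parts and climbs through the J part.

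The control of Tra/Trd was itself rich in STAT3 and STAT5 regions, with 76 STAT3 and 80 STAT5 regions in 1 Mb against 22.5 and 27.9 per Mb over the autosomes. Regions are stretches with at least 4-fold more reads than their surroundings. Against all autosomes the V part had a depth of 0.343, Trd 0.214, the J part 7.38 and the constant end 9.76; these share their control, so only the scale differs. Counting only reads outside regions, the V part stood at 0.211 of its control and Trd at 0.125, and the J part, at 4.85, then stood above the constant end, at 3.82. Per 200 bp bin that held any such read, the V part stood at 0.573 and Trd at 0.476. The deficit in V and Trd was thus smaller by this last measure, which leaves empty bins out. A filled bin holds at least 1 read, and the pooled means were 2.29 in V, 1.90 in Trd and 3.99 in the control. Few reads alone therefore make the deficit smaller by this measure. It does not tell how the missing reads were spread.

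**Figure D2:**
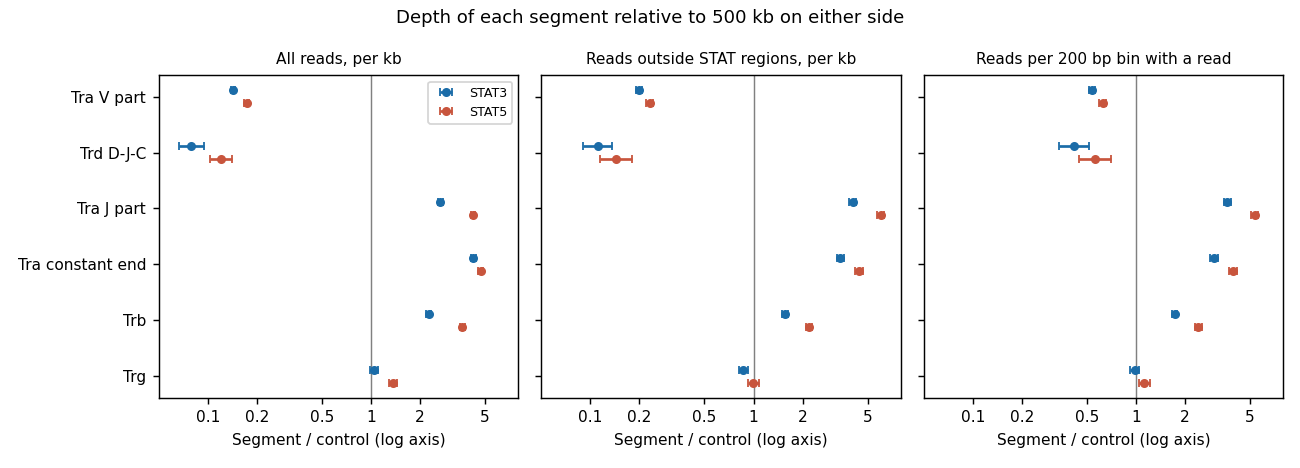
Depth of each segment divided by that of its 500 kb control on either side, on a log axis, by all reads, by reads outside regions and by reads per 200 bp bin that holds one. Points are the STAT3 and STAT5 libraries and bars are exact 95% counting intervals. Tra V and Trd lie under 1 and Tra J, Tra constant end and Trb over 1 by every measure, while Trg lies near 1.

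Windows were called low when both libraries were under 50% of the control median. In the V part 252 of 336 windows were low and in Trd 14 of 18, against 15 of 200 in the control, and none of the 14 windows of the J part or the 12 of the constant end was. By the autosomal median in place of the control, and over windows with a read, 42.4% of V windows and 62.5% of Trd windows were low. The same rule called 10.7% of the autosomal windows outside the loci. It called 28.6% of Trb windows against 14.6% in the Trb control, and 13.8% of Trg windows against 7.07% in the Trg control. The Trg share was thus near the autosomal one but above that of its own control. By the control median, 45 of 152 Trb windows were low against 27 of 200 in its control. For Trg these were 10 of 60 against 16 of 200.

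Within Trd, the counts by window were small. The 18 windows held between 0 and 30 STAT3 reads and between 0 and 51 STAT5 reads, 130 and 164 in all. The window at chr14:54680000-54684999, on the V side, held 30 STAT3 and 5 STAT5 reads, and the last one, chr14:54765000-54769999, held 26 and 51. The 8 windows from 1685 to 1725 kb held 30 STAT3 and 13 STAT5 reads in 40 kb, or 0.0412 and 0.0214 of the control depth, and the 5 windows from 1730 to 1755 kb held 22 and 24. The lowest depth in Trd was therefore inside it, but on the V side the contrast rested on few reads. Of the 30 STAT3 reads in that border window, 21 lay at a called site. Its 5 STAT5 reads were fewer than the 20 in the inner window chr14:54725000-54729999. Shortening Trd by 10 kb on each side gave a pooled ratio of 0.0689 and lengthening it gave 0.111.

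The Tra J part rose from its Trd side to its constant side. Its first 5 kb window held 20 STAT3 and 22 STAT5 reads, the window at chr14:54800000-54804999 held 335 and 293, and the last, chr14:54835000-54839999, held 452 and 961. The 3 windows with most reads in the locus followed directly: chr14:54840000-54844999 with 900 and 1126, chr14:54845000-54849999 with 1328 and 1336, and chr14:54850000-54854999 with 1480 and 939. Depth then fell to 60 STAT3 and 149 STAT5 reads in chr14:54860000-54864999. Outside regions the J part held 2257 of its 3388 STAT3 and 2263 of its 4478 STAT5 reads. With local means in the caller the J part had 2 STAT3 and 10 STAT5 regions, and with the genome-wide mean alone it had 34 and 33.

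In the V part depth was highest at the far end from Trd. Its 4 successive stretches of 420 kb, from the distal end, held 4.62, 1.89, 2.00 and 1.86 STAT3 reads per kb and 4.25, 1.89, 2.31 and 2.07 STAT5 reads per kb. The share of 200 bp bins outside regions that held a read was 50.2%, 15.5%, 26.5% and 31.1%. The distal stretch was thus higher by all these measures. Outside regions, the other 3 held 1.01, 1.74 and 1.63 STAT3 and 0.760, 1.49 and 1.45 STAT5 reads per kb, in the same order in both libraries, so depth did not fall steadily toward Trd.

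Low windows came in long stretches. Tra/Trd had 17 runs of at least 4 low windows, 1090 kb in all, Trb had 2 and Trg 1. The limit for low followed each locus's own control median. That median was 2.50 STAT3 and 2.12 STAT5 RPM for Tra/Trd, 1.03 and 0.779 for Trb, and 1.11 and 0.835 for Trg. Over autosomal windows with a read it was 1.15 and 0.835. The numbers of runs therefore do not compare the loci at a like depth, and runs were not counted in the controls or the autosomes. These runs were picked for low depth, so their low depth relative to the control follows from the choice. The longest lay at 405 to 655 kb, where 27 of 50 windows held no read, and at 760 to 965 kb, where 22 of 41 held none. The first held 124 STAT3 and 99 STAT5 reads and the second 53 and 43. Between and around them, runs started at 115, 205, 290 and 670 kb and held 0.0264 to 0.123 of the control depth. On the Trd side, runs started at 990, 1090, 1220, 1270, 1305, 1360, 1455, 1500 and 1585 kb and held 0.0450 to 0.169 of it. The 3 windows listed first among those with fewest reads, at chr14:53205000-53209999, chr14:53445000-53449999 and chr14:53460000-53464999, were empty in both libraries, as were 58 windows of the V part and 2 of Trd in all.

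How reads lay within these stretches differed. The 250 kb stretch at 405 kb had reads in 7.68% of its 200 bp bins, where an even spread of its pooled reads would fill 16.3%. The 205 kb stretch at 760 kb had 4.78% against 8.94%. The largest read-free gaps of the locus, 61231 bp at chr14:53800338-53861568 and 57955 bp at chr14:53506837-53564791, lay in them. When reads are few, any spread nears the even one, so stretches of unlike depth were compared by an equivalent share, the share of bins which, if reads fell evenly on those bins alone, would leave as many bins filled as were observed. It was 8.86% and 6.09% in these stretches and 85.3% in the control. In the other V stretches it ran from 22.9% to 54.2%, and in the Trd stretches it was 34.5% at 1685 kb and 28.9% at 1730 kb, both inside that range. Reads thus stood in fewer places in the longest pair than in the other stretches of the locus. Reads per equivalent bin were 0.257 and 0.197 of the control in that pair, 0.112 to 0.272 in the other V stretches, and 0.0796 and 0.163 in the Trd stretches. Reads in regions were counted here, which gave the control 7.82 reads per equivalent bin, against 3.91 for reads outside regions. By reads outside regions the whole V part stood at 0.503 of the control and the whole of Trd at 0.373. Clumping of reads at weak sites lowers an equivalent share as well, and which positions of mm9 can hold a 25 nt read was not tested.

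**Figure D3:**
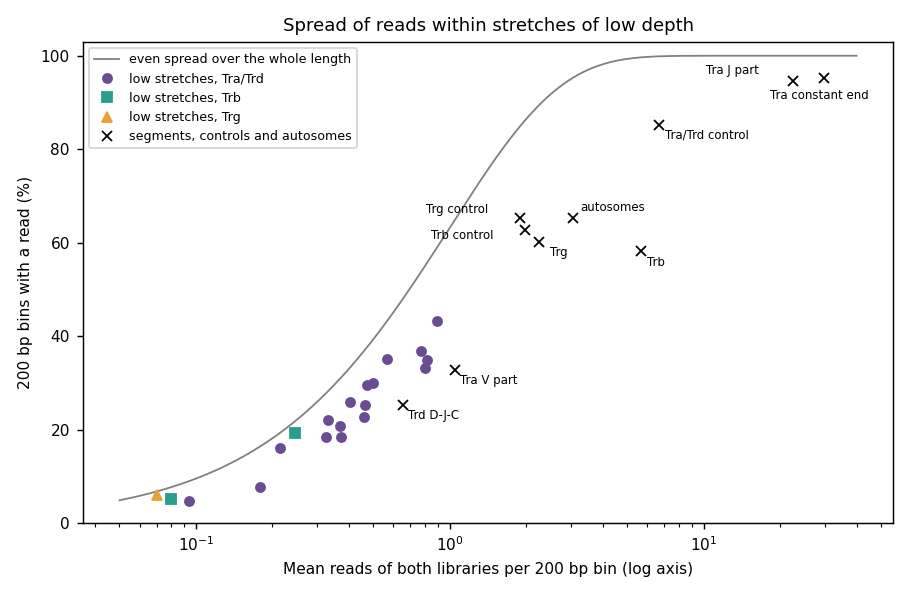
Share of 200 bp bins with a read against mean reads per bin (log axis), both libraries pooled, for each low stretch, segment and control. The grey curve is what reads spread evenly over the whole length would give. The Trb stretch at 505 kb lies near the curve (19.3% against 21.8%), and the Tra stretches at 405 and 760 kb lie far under it for their depth.

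The segments, whose limits did not use depth, were also ranked among blocks of their own length cut from all autosomes. The Trd D-J-C part had fewer reads outside regions per kb than all but 2.13% of 26528 blocks of 90 kb. By reads per filled bin, which cannot fall below 1, 31.3% of these blocks were lower than Trd. Of the 177 blocks with a like share of filled bins, 79.1% had fewer reads per kb than Trd. That share was 25% of only 8 blocks for the V part, 100% of 650 for Trb and 91.1% of 1548 for Trg. It was 99.5% for the J part and 97.9% for the constant end. Among all blocks, by reads outside regions per kb, 3.62% were lower than the V part, 78.1% than Trb and 43.0% than Trg. The Tra J part stood above 99.9% of its blocks and the constant end above 99.8%.

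A count of positions hit more than once gave another view of depth, since 2 libraries and 2 strands make 4 sets of positions. In the V part outside regions 68 positions were shared between pairs of sets, against 108 expected at the control's depth per position, a ratio of 0.628 (0.474 to 0.822). In Trd 1 was shared against 3.30, with a ratio of 0.303 whose interval, 0.00764 to 1.70, includes no difference. The J part and constant end stood at 3.73 and 5.93, Trb at 10.9 (8.30 to 14.7) and Trg at 1.90 (0.898 to 3.84). By reads outside regions per kb Trb stood at only 1.81 and Trg at 0.918. The count reads depth per position only as far as reads are spread evenly, so it is not a plain measure of depth. By this count V was nearer to its control than by reads per kb, and Trd was too shallow to place. In the low stretch at 405 kb 6 positions were shared against 3.87 expected, a ratio of 1.55 (0.565 to 3.42). In that at 760 kb 2 were shared against 1.77, a ratio of 1.13 (0.136 to 4.12). Neither stretch was lower than the control by this count, and both intervals are wide and include no difference.

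Trb as a whole held more reads than its flanks, with 12.4 STAT3 and 16.0 STAT5 reads per kb against 5.50 and 4.41. The pooled ratio was 2.87, and it was 1.81 outside regions and 2.00 per filled bin. The flanks differed: the ratio was 2.21 against the left one and 4.08 against the right one. Along the locus, reads per kb in its 4 successive stretches of 190 kb were 7.75, 16.3, 2.29 and 23.4 for STAT3 and 9.71, 24.7, 2.71 and 26.8 for STAT5. The windows with most reads were chr6:41500000-41504999 with 1306 STAT3 and 1654 STAT5 reads, chr6:40840000-40844999 with 678 and 1172, and chr6:41505000-41509999 with 757 and 712. Windows at chr6:40920000-40924999, chr6:40925000-40929999 and chr6:40935000-40939999 held none, in the run at 115 to 150 kb, which held 10 and 4 reads.

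The longest low stretch of Trb ran from 505 to 640 kb, chr6:41305000-41439999, and held 106 STAT3 and 60 STAT5 reads in 135 kb, 0.143 and 0.101 of the control depth. Its reads filled 19.3% of bins against 21.8% for an even spread, and its equivalent share was 48.2%, against 66.1% in the control. Reads per equivalent bin were 0.170 of the control, which stood at 3.00 with reads in regions counted and at 2.24 outside regions. No position was shared between sets there, against 1.16 expected, which is too few to place it. The window at 495 kb was low too, with 0.289 STAT3 and 0.334 STAT5 RPM against control medians of 1.03 and 0.779. The window just before the stretch held 0.433 and 0.668 and the one just after it 0.722 and 0.0557. Each of these was under the limit in 1 library only and so was not called low.

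**Figure D4:**
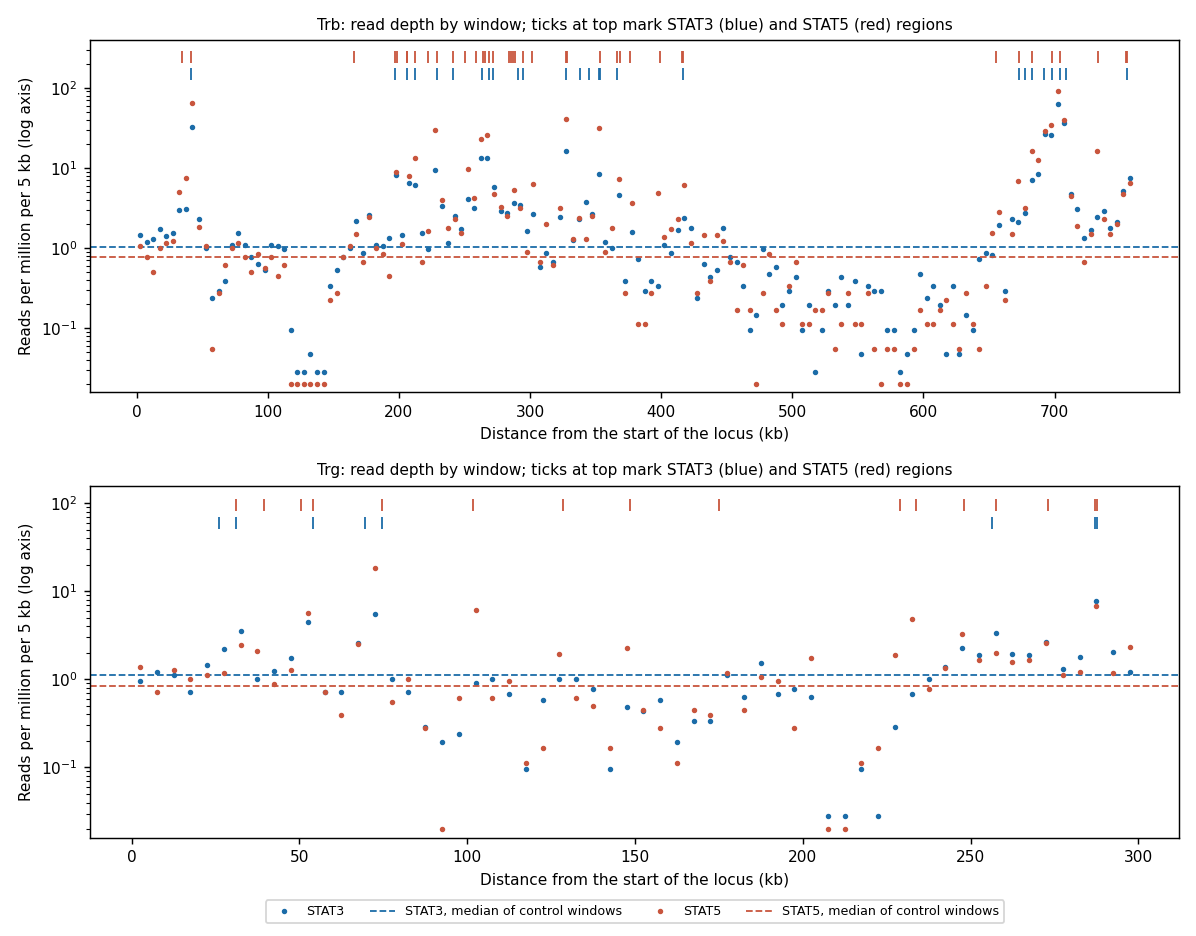
RPM in each 5 kb window of Trb (top) and Trg (bottom) against distance from the locus start in kb, on log axes. Dashed lines are control medians, 1.03 (STAT3) and 0.779 (STAT5) for Trb and 1.11 and 0.835 for Trg, points on the bottom rows are windows with no read, and ticks at the top are called regions. In the low stretch of Trb at 505 to 640 kb every window lies under the lines by the definition of a low window, and most Trg windows lie near them.

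Trg was close to its flanks. It held 5.33 STAT3 and 5.91 STAT5 reads per kb against 5.10 and 4.34, a pooled ratio of 1.19 (1.15 to 1.24). Outside regions the ratio was 0.918 (0.872 to 0.966) and per filled bin 1.04 (0.985 to 1.09), so the direction turned with the measure. Against the autosomes it was 0.738. The windows with most reads were chr13:19270000-19274999 with 114 STAT3 and 332 STAT5 reads, chr13:19485000-19489999 with 161 and 121, and chr13:19250000-19254999 with 93 and 101. The only run of low windows, at 205 to 225 kb, held 2 STAT3 and 5 STAT5 reads, with chr13:19405000-19409999 and chr13:19410000-19414999 empty and chr13:19420000-19424999 holding 0 and 3. It contained most of the 13118 bp gap at chr13:19404089-19417206.

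The 3 loci held 61 STAT3 and 117 STAT5 regions, 20.6 and 39.5 per Mb. The V part had 18 and 38, Trd 1 and 3, the J part 2 and 10, the constant end 6 and 10, Trb 26 and 40, and Trg 8 and 16. Merging overlapping regions gave 138 sites, of which 40 were called in both libraries, 21 with STAT3 alone and 77 with STAT5 alone. Reads were then counted in 400 bp around each site, and STAT5 or STAT3 was called higher where the whole interval of the RPM ratio lay beyond 2-fold. STAT5 was higher at 53 of the 138 sites (38.4%) and STAT3 at 2. Over all 86129 sites of the genome the shares were 25.1% and 2.4%. By segment STAT5 was higher at 15 of 45 sites in the V part, 2 of 4 in Trd, 9 of 12 in the J part, 2 of 10 at the constant end, 17 of 48 in Trb and 8 of 19 in Trg. By whole windows, STAT5 was more than 2-fold higher in 22 of 525 windows (4.19%) and STAT3 in 1, against 1.46% and 0.334% of autosomal windows.

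**Figure D5:**
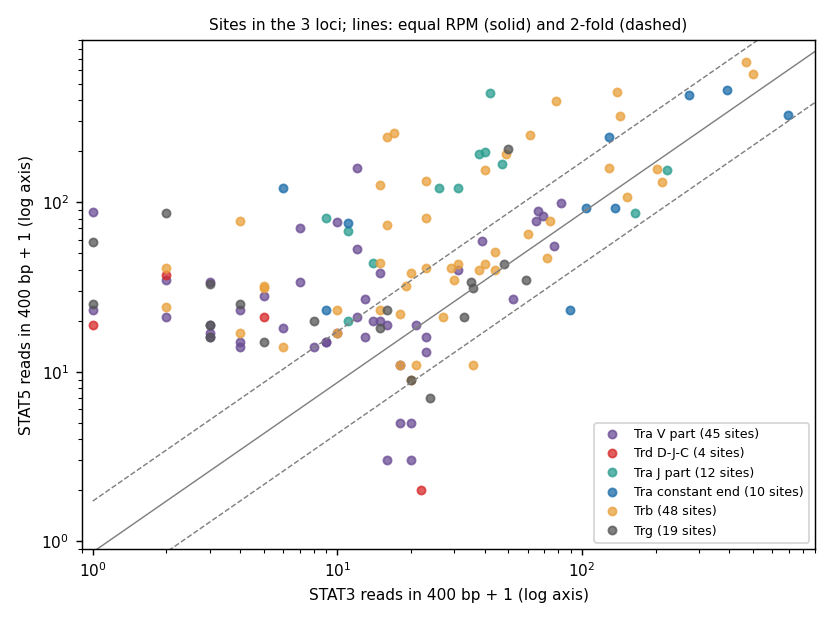
STAT5 against STAT3 reads in 400 bp around each of the 138 sites, plus 1 on both log axes, coloured by segment. The solid line is equal RPM and the dashed lines are 2-fold. Most sites of the Tra J part lie above the upper dashed line, and the tallest sites of the constant end and Trb lie near the solid one.

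At the Tra constant end the tallest sites were tall with both antibodies. The site at chr14:54852850-54853399 had 691 STAT3 and 326 STAT5 reads, a STAT5 to STAT3 ratio of 0.546 (0.477 to 0.624). The region at chr14:54846950-54847449 had 467 and 442 at its STAT3 summit (ratio 1.10, 0.959 to 1.25) and 390 and 461 at its STAT5 summit. That at chr14:54841850-54842149 had 253 and 379, with 273 and 425 at the STAT5 summit. The region at chr14:54852450-54852749, called with STAT5 alone, had 128 and 241. Each site could hold at most 800 reads, since each position and strand was deposited once, so differences among the tallest are compressed.

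At the border of the J part and the constant end, chr14:54839250-54839699 had 41 STAT3 and 440 STAT5 reads, 12.4-fold (9.0 to 17.5) higher with STAT5. STAT3 regions of the J part, at chr14:54830850-54831249 with 222 and 153 reads and chr14:54826150-54826499 with 163 and 85, were not called in the STAT5 library with local means, while with the genome-wide mean alone STAT5 regions covered both. STAT5 was 28.0-fold (11.7 to 87.8) higher at chr14:54864600-54865049, past the constant side, with 5 and 121 reads. STAT3 was higher at chr14:54878700-54879099, with 88 and 22 reads and a STAT5 to STAT3 ratio of 0.289 (0.173 to 0.466).

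Trd held 4 sites, each called in 1 library alone. At chr14:54681300-54681649, by the V side, there were 21 STAT3 reads and 1 STAT5 read (0.0551, 0.00133 to 0.343). At chr14:54728400-54728749 there were 0 and 18, at least 6.94-fold higher with STAT5 against a floor of 3 reads. At chr14:54758050-54758449 there were 1 and 36 (41.7-fold, 7.01 to 1690), and at chr14:54768850-54769199 there were 4 and 20, which was not called beyond 2-fold. In the whole of Trd, 95 of 130 STAT3 and 83 of 164 STAT5 reads lay outside regions.

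In the V part the sites were small, with a median of 11 STAT3 and 20 STAT5 reads, against 33 and 39 over the autosomes. By the lower limit of the ratio, the V sites most unequal between the libraries were both higher with STAT5: chr14:53198450-53198899 had 0 STAT3 and 87 STAT5 reads, at least 33.6-fold higher, and chr14:54179850-54180299 had 11 and 159, 16.7-fold (9.10 to 34.2). None of the 45 V sites was called higher with STAT3.

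In Trb the tallest sites were again shared. The site at chr6:41504250-41504699 had 501 STAT3 and 567 STAT5 reads and that at chr6:40840700-40841349 had 467 and 669. Beside the first, chr6:41508400-41508699 had 211 and 130, chr6:41498300-41498599 had 201 and 157, and chr6:41491550-41491899 had 152 and 106. Of these, chr6:41508400-41508699 and chr6:41491550-41491899 were called with STAT3 alone. STAT5 led at some tall sites between 229 and 353 kb from the locus start: chr6:41028750-41029249 had 138 and 448 (3.76-fold, 3.10 to 4.58), chr6:41152850-41153349 had 77 and 395 (5.94-fold, 4.64 to 7.68) and chr6:41127150-41127549 had 142 and 323. Other sites in that span were not called beyond 2-fold. Among them chr6:41062950-41063599 had 128 and 159 (1.44-fold, 1.13 to 1.83), chr6:41068250-41068549 had 73 and 77, and chr6:41152350-41152699 had 59 and 64. Ranked by the lower limit of the ratio, STAT5 was 18.5-fold (11.2 to 32.9) higher at chr6:41065200-41065599, with 16 and 256 reads, and 18.7-fold (11.1 to 33.9) at chr6:41532850-41533299, with 15 and 242. Next by that limit were chr6:41198800-41199249 with 3 and 77 (29.7-fold, 9.79 to 147), chr6:41176250-41176599 with 1 and 40 (46.3-fold, 7.84 to 1873), and chr6:41050300-41050749 with 14 and 126 (10.4-fold, 5.98 to 19.6). The ratios at the pair with 3 reads or fewer in the STAT3 library are larger but far less certain. No Trb site was called higher with STAT3.

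The tallest Trg sites were lower than those of the other loci, while the median site, with 14 STAT3 and 24 STAT5 reads, was not lower than in the Tra V part. At chr13:19274050-19274749 there were 49 STAT3 and 204 STAT5 reads at the STAT5 summit, 4.82-fold (3.51 to 6.72), and 72 and 187 at the STAT3 summit. The site at chr13:19301600-19302049 had 1 and 85 (98.3-fold, 17.2 to 3930) and that at chr13:19433500-19434049 had 0 and 57, at least 22.0-fold higher. Smaller ones were chr13:19348550-19348899 with 0 and 24, at least 9.26-fold higher, and chr13:19428850-19429249 with 2 and 32. The sites with like reads in both libraries were chr13:19487550-19487899 with 58 and 34, chr13:19487100-19487399 with 34 and 33, chr13:19253950-19254399 with 47 and 42, and chr13:19269550-19269899 with 35 and 30. The last of these was called with STAT3 alone. No Trg site was called higher with STAT3. The flanks of Trg gave much the same shares, with STAT5 higher at 8 of 21 sites (38.1%) and STAT3 at 0, beside 8 of 19 (42.1%) and 0 in the locus.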

How the data were processed

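Each deposited file lists aligned reads of 25 nt with start, end, strand, a match descriptor and a score. Per the submitters' processing notes, coordinates are those of mm9. Aligner and settings were not stated. The score the authors deposited was 0 for every read and was not used. The deposited start and end coordinates, both counted from 1 and in no other unit, were the only measurement. Each file held at most 1 read per position and strand, by a step that the labels do not describe.

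All values were computed with Python 3.11.15, with pandas 2.3.3, numpy 2.4.6, matplotlib 3.10.9 and scipy 1.17.1. Read 5′ ends were moved by 45 bp (STAT3) or 51 bp (STAT5), from fragments of 91 and 103 bp. Regions were 200 bp windows, moved by 50 bp, with at least 5 reads, a 4-fold or greater excess over each of 3 means (10 kb, 5 kb and genome-wide), and a Poisson p, adjusted by Benjamini-Hochberg, of at most 1e-05. Windows within 100 bp were joined, and regions with under 20% or over 80% of reads on the plus strand were left out. Reads outside regions lay more than 500 bp from any region of either library. Ratios have exact conditional (Clopper-Pearson) 95% intervals, and a count of 0 has a floor of 3 reads per library. The code was tested on simulated reads. Named are, per locus, the 5 tallest regions of each library, up to 5 sites per side called beyond 2-fold, the 3 windows with most and with fewest reads, and runs of at least 4 low windows; other windows, such as those within Trd, were chosen after their values were seen. The loci, their limits and these rules were chosen with earlier results of these data known. The autosomal control, successive stretches, blocks, gaps and the filling of bins were added after seeing the data, as was the use of each locus's own control for shared positions.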

Additional observations from a re-analysis of the deposited data

How the results depend on the processing

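No paired analysis was possible because each antibody had 1 library. Alternatives changed 1 choice at a time, except that the measure in filled bins drops both reads in regions and empty bins; the autosomes as control were chosen after seeing the data. Pooled depth relative to control moved outside its counting interval as follows. For Tra V (0.157) it was 0.211 outside regions, 0.573 in filled bins, 0.152 and 0.161 against the left and right control, and 0.343 against autosomes. For Trd (0.0979) it was 0.125, 0.476 and 0.214 outside regions, in filled bins and against autosomes, and 0.0689 and 0.111 with Trd shorter or longer by 10 kb. For Tra J (3.37) it was 4.85, 4.31, 3.28, 3.46 and 7.38 in the order given for Tra V, and for the constant end (4.45) 3.82, 3.37, 4.33, 4.58 and 9.76. For Trb (2.87) it was 1.81, 2.00, 2.21, 4.08 and 1.87. For Trg (1.19) it was 1.04 in filled bins, 1.35 and 1.07 (1.02 to 1.11) against the left and right control, and it reversed to 0.918 outside regions and 0.738 against autosomes. In the STAT5 library alone Trg reversed to 0.995 (0.920 to 1.08) and 0.836. Tra V and Trd stayed under 1 and Tra J, the constant end and Trb over 1 in all of these. STAT3 regions in the loci numbered 61, 26 at a minimum fold of 8 and 134 with the genome-wide mean only, and STAT5 regions 117, 65 and 180. Low windows by a limit of 33% of the control median numbered 234, 33 and 8 in Tra/Trd, Trb and Trg, against 266, 45 and 10. The cause of these shifts was not tested. Depth limits Trd most, with 130 and 164 reads, and without an input library, replicate or mm9 map of placeable positions, lost DNA, chromatin and read placement cannot be told apart.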
